A study of Mus musculus with 8 samples.

Results

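Ttr, which encodes transthyretin, a carrier of thyroid hormone and of retinol-binding protein, varied 48.1-fold in raw count between hippocampal libraries of the control mice and 38.5-fold between those of the SAP97-cKO mice. The 8 libraries were therefore divided within each genotype by their raw Ttr count. The 4 rich libraries were chosen by the 2 highest Ttr counts of each genotype (control 2, control 3, SAP97-cKO 2 and SAP97-cKO 3), and the 4 poor libraries were the other 2 of each genotype (control 1, control 4, SAP97-cKO 1 and SAP97-cKO 4). Rich libraries were then compared with poor libraries across all genes, with genotype in the model. Because the libraries were selected on Ttr, Ttr carries no test between rich and poor libraries, and the other choroid plexus genes are given as a description of how they followed it.

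Each library was made from the hippocampus of 1 male mouse and held 37388177 to 37426572 counts after the authors had resampled all libraries to a common depth. The SAP97-cKO mice carried a floxed SAP97 gene (Dlg1, a synaptic scaffold protein) and a Nestin-cre transgene, which acts in neural progenitors and their descendants, the lineage from which neurons, most glia and the choroid plexus epithelium come. The methods describe controls that carried Nestin-cre alone, the floxed alleles alone or neither. Which of these each control library was, and the age of these mice, were not given in the sources used here. How much choroid plexus each dissection held was not recorded in the sources used here. The numbers 2 and 3 were rich and the numbers 1 and 4 poor in both genotypes, so that the Ttr division and the replicate number cannot be told apart, and what the numbers stand for was not given.

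The choroid plexus is a fold of vascular stroma covered by a single layer of ciliated epithelium that hangs into each brain ventricle. Its epithelium makes the cerebrospinal fluid by moving ions and water and secretes transthyretin, growth factors and their binding proteins into it. The plexus of the lateral ventricle is attached along the fimbria, at the edge of the hippocampus, so that a hippocampal dissection can take along more or less of it. In bulk tissue, fewer cells of a type and less RNA per cell cannot be told apart.

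The promoters of 28 of the 37 choroid plexus genes that passed the threshold described further on had an entry in the RefSeq promoter table of the GRCm38.p6 build. One of those genes, Otx2, encodes a homeobox factor of the choroid plexus that binds the letters TAATCC. These letters, on either strand, stood in the 250 bases before a start of 5 of the 28 genes (17.9%), Otx2 itself among them, against 5 of the 50 choroid plexus list genes with an entry (10%) and 7.21% of 27025 genes in the table. A forkhead motif, TGTTTAC, was found in 1 of the 28 (3.57%, against 3.54% of all genes). The letters GTTGCC, a part of the X-box that RFX factors of ciliated cells bind, were found in 3 (10.7%, against 11.8%). A match is only a string of letters. The 4 genes with TAATCC near a start, other than Otx2 itself, are printed here because Otx2 is itself a called gene, with TAATCC or its reverse complement GGATTA in capitals, 5′ to 3′ on the gene's strand. All 4 genes are on the plus strand. Abca4 (chr3:122044210-122044459) encodes a lipid transporter, Vat1l (chr8:114205390-114205639) a vesicle amine transport-like protein, Mfrp (chr9:44101520-44101769) a membrane frizzled-related protein and Ace (chr11:105967698-105967947) angiotensin-converting enzyme.
Abca4: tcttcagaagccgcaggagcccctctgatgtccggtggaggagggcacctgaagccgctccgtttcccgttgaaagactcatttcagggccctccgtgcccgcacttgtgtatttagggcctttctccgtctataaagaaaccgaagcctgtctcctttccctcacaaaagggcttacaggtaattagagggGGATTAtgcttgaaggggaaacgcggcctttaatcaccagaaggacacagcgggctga
Vat1l: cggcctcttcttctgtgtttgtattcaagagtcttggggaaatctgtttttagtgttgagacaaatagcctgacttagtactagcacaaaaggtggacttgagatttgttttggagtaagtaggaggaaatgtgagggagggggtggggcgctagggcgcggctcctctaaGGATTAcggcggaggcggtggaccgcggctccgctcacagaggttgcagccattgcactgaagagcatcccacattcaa
Mfrp: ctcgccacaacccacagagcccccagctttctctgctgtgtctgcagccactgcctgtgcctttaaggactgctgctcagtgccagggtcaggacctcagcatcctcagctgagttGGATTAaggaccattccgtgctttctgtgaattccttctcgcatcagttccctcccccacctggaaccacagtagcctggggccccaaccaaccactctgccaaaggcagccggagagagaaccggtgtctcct
Ace: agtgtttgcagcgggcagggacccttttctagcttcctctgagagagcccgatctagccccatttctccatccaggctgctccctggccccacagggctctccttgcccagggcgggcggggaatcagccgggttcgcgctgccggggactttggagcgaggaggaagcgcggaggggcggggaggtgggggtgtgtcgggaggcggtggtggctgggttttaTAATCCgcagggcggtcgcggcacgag

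Levels are given as CPM, a gene's share of the counts of its library, after TMM scaling. Ttr was at 6205 and 3459 CPM in the rich control libraries and at 1072 and 126 CPM in the poor ones. In the SAP97-cKO libraries it was at 2130 and 1223 CPM in the rich and at 489 and 57.8 CPM in the poor. At the edge of the division, the lowest rich count was 3.33 times the highest poor count in the controls (133280 against 40078) and 2.51 times in the SAP97-cKO libraries (45119 against 17947). The poor control 1 and the rich SAP97-cKO 3 were thus close to each other in Ttr, and the names rich and poor hold only within a genotype. Both genotypes had the same order, with number 2 highest, then 3, 1 and 4.

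The other 3 marker genes of the choroid plexus followed the division within each genotype. Enpp2, which encodes autotaxin, the enzyme that makes lysophosphatidic acid, was at 3132 and 1824 CPM in the rich and 639 and 279.7 CPM in the poor controls, and at 959 and 536 CPM in the rich and 438 and 154 CPM in the poor SAP97-cKO libraries. Across genotypes the groups overlapped, since the rich SAP97-cKO 3 was below the poor control 1. The difference of Enpp2 between rich and poor was 1.88 (SE 0.42) on the log2 scale. Kl, which encodes klotho, a co-receptor of fibroblast growth factor 23, was at 232 and 132 CPM in the rich and 59.3 and 23.8 CPM in the poor controls. In the SAP97-cKO libraries Kl was at 82.2 and 62.5 CPM in the rich and 43.8 and 30.1 CPM in the poor, so that every rich library lay above every poor one (log2 difference 1.55, SE 0.34). Folr1, the folate receptor that carries folate into the cerebrospinal fluid, was at 47.3 and 24.6 CPM in the rich and 9.44 and 2.73 CPM in the poor controls. Its values in the SAP97-cKO libraries were 15.2 and 9.27 CPM in the rich and 4.03 and 1.31 CPM in the poor, with a log2 difference of 2.40 (SE 0.43). The rich SAP97-cKO 3 fell just below the poor control 1 for Folr1 as well.

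**Figure D1:**
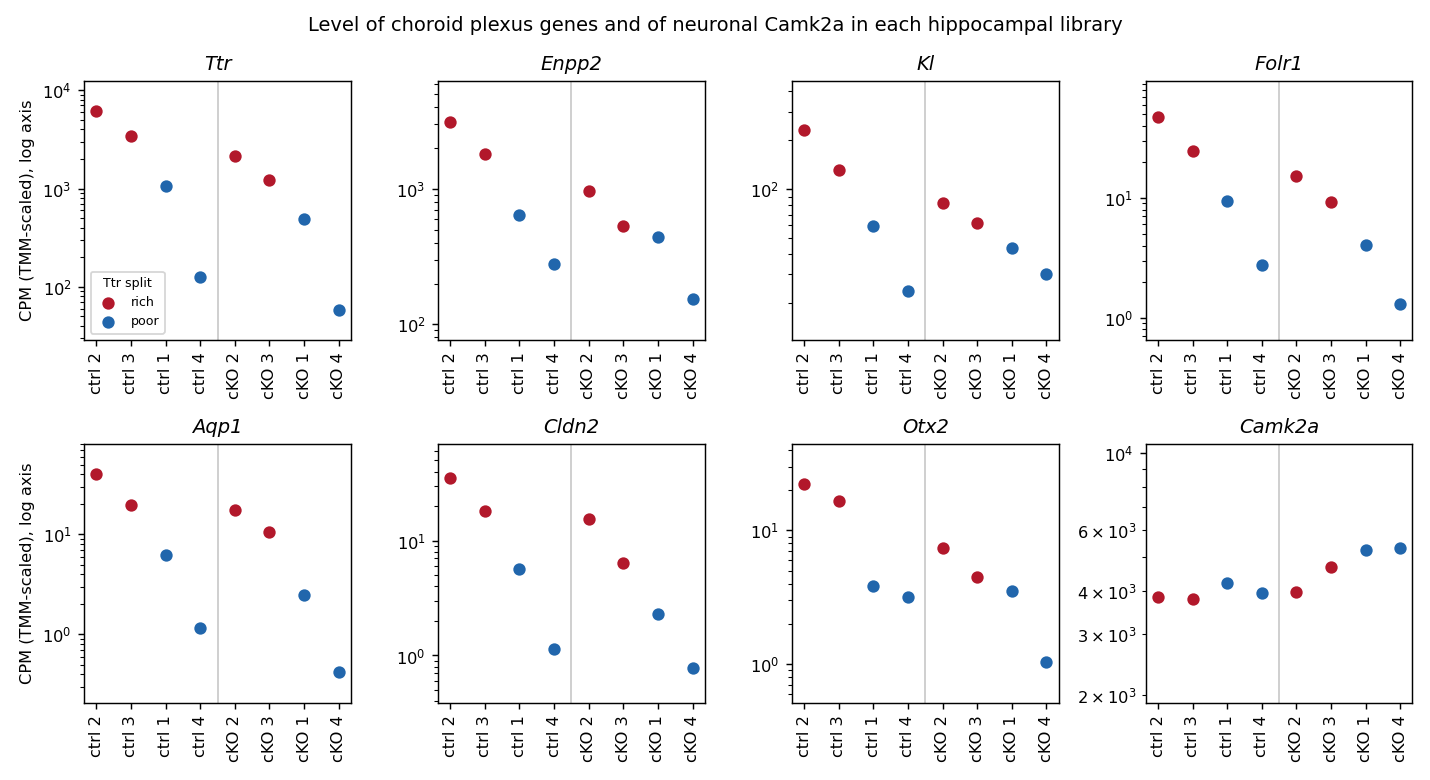
CPM on a log axis (vertical) of 7 choroid plexus genes and of the neuronal gene Camk2a in each of the 8 libraries (horizontal), rich libraries in red and poor ones in blue, with a line between control and SAP97-cKO. The red points lie above the blue ones within each genotype for all 7 plexus genes. Camk2a spans only 3796 to 5329 CPM, with the red points below the blue ones within each genotype.

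Of 16966 genes tested, 120 were higher in rich libraries (0.707% of the genes tested) and 1 was lower (0.00589%), at the study's threshold, an FDR under 0.25 by edgeR's quasi-likelihood test. A call here says only that a gene differed between libraries with more and with less Ttr. The log2 differences of the 120 genes ran from 0.36 to 4.99, with a median of 1.60, against a median of 0.0016 over all genes tested. In 119 of the 120, both rich libraries lay above both poor libraries in each genotype, which was so for 3.22% of all genes tested. The 120 genes were called on these same libraries, so neither their median nor this order is separate evidence. The lowest adjusted p was 0.0950, so that 0 genes passed an FDR of 0.05 in edgeR, while 826 had an unadjusted p under 0.05. Leaving out control 4 or SAP97-cKO 4 gave 0 calls, leaving out SAP97-cKO 2, control 1 or control 2 gave 14, 19 and 31 (12, 19 and 26 of them among the 121), and without genotype in the model there were 0. In 12 of the 120 genes every poor library held under 10 counts, so that they were tested only through the rich libraries.

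The choroid plexus genes of 4 lists, written by role, made up 37 of the 120. Of 62 tested genes on these lists other than Ttr, 37 were higher, 0 were lower and 25 did not pass, and the median log2 difference was 1.53. In 44 of the 62, both rich libraries lay above both poor ones in each genotype, against 3.22% of all genes tested. In 22 of the 62, every rich library lay above every poor one, against 225 of the 16966 genes tested. The highest value of 52 of the 62 genes was in control 2, and the lowest value of 48 was in SAP97-cKO 4. SAP97-cKO 4 was also lowest for 14 of 16 endothelial, 10 of 12 pericyte and smooth muscle and 23 of 30 fibroblast genes. It was lowest for 12 of 14 oligodendrocyte genes and for 0 of 13 neuron and 0 of 13 microglia genes. The share over all genes tested is not given here, and the part of this library in the differences was not tested. The within-genotype medians were 1.42 in the controls and 0.94 in the SAP97-cKO libraries on the log2(CPM + 0.5) scale.

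**Figure D2:**
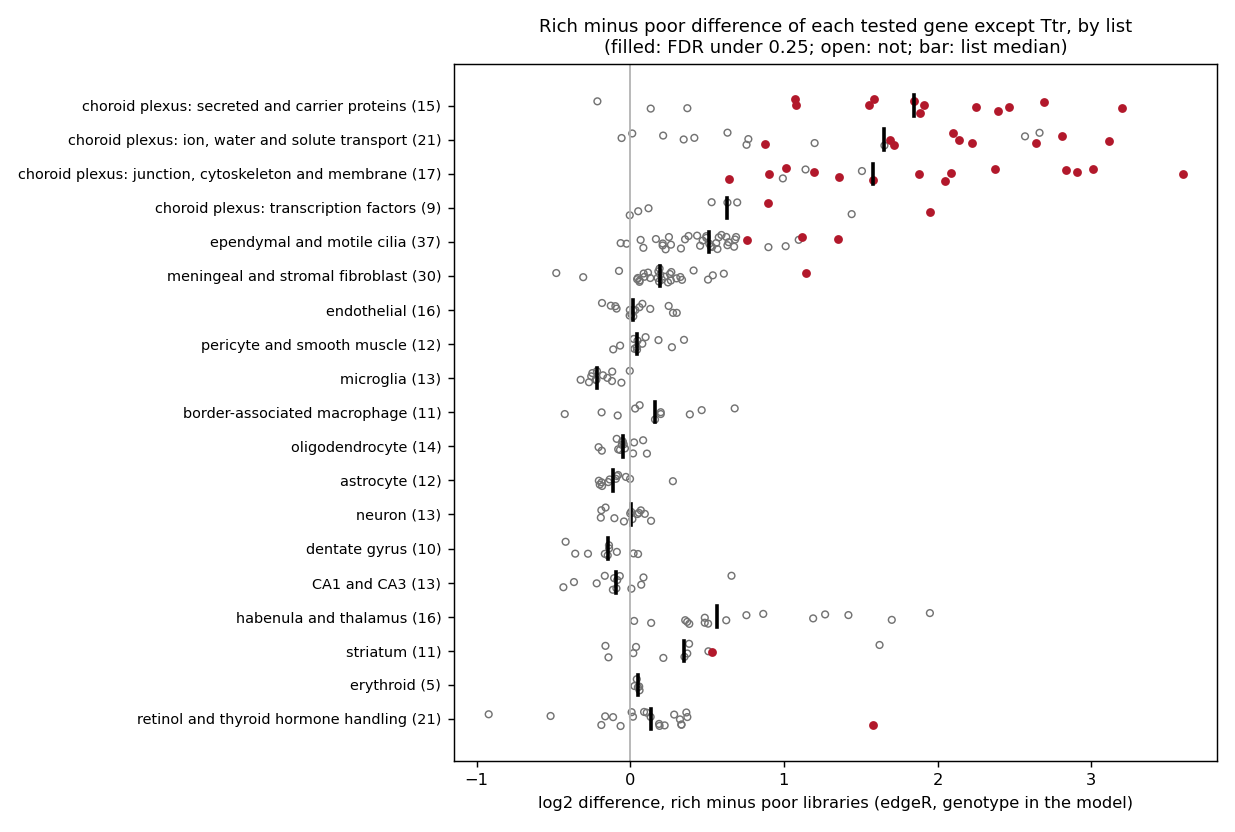
Log2 difference between rich and poor libraries (horizontal) of each tested gene other than Ttr in 19 gene lists (rows, with the number of genes tested), with filled points for genes past an FDR of 0.25, open points for the others and a bar at the list's median. The medians of the secreted, transport, junction and transcription factor lists of the choroid plexus lie at 1.85, 1.65, 1.58 and 0.63, while those of the 15 lists of other cell types and processes lie between -0.22 and 0.57.

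Among secreted and carrier proteins, 12 of 15 tested genes other than Ttr were higher in rich libraries (median log2 difference 1.85). F5, coagulation factor V, was at 84.4 and 47.2 CPM in the rich and 14.2 and 2.36 CPM in the poor controls. It was at 24.3 and 11.3 CPM in the rich and 6.13 and 0.834 CPM in the poor SAP97-cKO libraries. Its log2 difference was 2.70 (SE 0.60), and the rich SAP97-cKO 3 was again below the poor control 1. Prlr, the prolactin receptor, had a log2 difference of 2.46 (SE 0.48), and Ace, whose promoter is printed above, one of 1.91 (SE 0.32). The growth factor gene Igf2 was higher by 1.08 (SE 0.25) and Igfbp2, which encodes a binding protein of insulin-like growth factors, by 1.07 (SE 0.19). For both, every rich library exceeded every poor one. Igfbp2 was at 109.9, 69.0, 57.8 and 40.9 CPM in the rich libraries and at 38.1, 31.9, 32.5 and 24.6 CPM in the poor ones. Cst3, the cystatin C gene, which many brain cells express, did not pass (-0.21, SE 0.11).

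Among ion, water and solute transporters, 9 of 21 tested genes were higher in rich libraries (median log2 difference 1.65). Aqp1, the water channel of the ventricular face of the epithelium, was at 40.3 and 19.8 CPM in the rich and 6.26 and 1.17 CPM in the poor controls. In the SAP97-cKO libraries it was at 17.4 and 10.5 CPM in the rich and 2.51 and 0.417 CPM in the poor, so that all rich libraries were above all poor ones. Its log2 difference was 3.12 (SE 0.53), with 3.10 within the controls and 3.07 within the SAP97-cKO libraries. Kcnj13, the inward rectifier potassium channel Kir7.1, had a log2 difference of 2.64 (SE 0.53), the chloride channel gene Clic6 one of 2.23 (SE 0.41) and Abca4 one of 2.14 (SE 0.47). The bicarbonate cotransporter Slc4a5 (2.66, SE 0.64) and the potassium channel subunit Kcne2 (2.57, SE 0.63) had differences as large but wider errors, and did not pass. Htr2c, the serotonin 2C receptor, which neurons also express, had a difference of 0.76 (SE 0.20) and did not pass. Transport genes that many hippocampal cells use did not pass either, with values of -0.06 (SE 0.09) for the sodium pump subunit Atp1b1, 0.01 (SE 0.11) for the carbonic anhydrase Car2 and 0.42 (SE 0.21) for the chloride cotransporter Slc12a2.

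Among junction, cytoskeleton and membrane genes, 14 of 17 tested genes were higher in rich libraries (median log2 difference 1.58). Cldn2, the pore-forming claudin of leaky epithelia, was at 35.0 and 18.1 CPM in the rich and 5.62 and 1.14 CPM in the poor controls. The SAP97-cKO values were 15.5 and 6.37 CPM in the rich and 2.29 and 0.778 CPM in the poor libraries, and the groups did not overlap (log2 difference 2.91, SE 0.50). Mfrp, whose promoter is printed above, had a log2 difference of 3.01 (SE 0.70), and the membrane protein gene Tmem72 one of 2.83 (SE 0.58). The keratin genes of simple epithelia were higher by 2.09 (Krt18, SE 0.29) and 1.36 (Krt8, SE 0.23). Smaller differences were found for Vat1l (1.20, SE 0.20), for Perp, a component of desmosomes (1.02, SE 0.17), for the protease inhibitor gene Spint2 (0.90, SE 0.18) and for Cab39l (0.64, SE 0.14). The summed level of this list was 163 to 503 CPM in rich and 79.7 to 149 CPM in poor libraries.

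Of 9 transcription factor genes, 2 were higher in rich libraries (median log2 difference 0.63). Otx2, which specifies the choroid plexus, was at 22.3 and 16.5 CPM in the rich and 3.85 and 3.17 CPM in the poor controls. It was at 7.37 and 4.47 CPM in the rich and 3.54 and 1.03 CPM in the poor SAP97-cKO libraries. All rich libraries were above all poor ones (log2 difference 1.95, SE 0.36). Msx1, a homeobox gene of the dorsal midline, was higher by 0.90 (SE 0.15). Lmx1a, a factor of the same midline, had a difference of 1.44 (SE 0.39), and Foxj1, the switch for motile cilia, one of 0.63 (SE 0.17), and neither passed. Rfx3 and Sox9, both widely expressed in the brain, were at 0.00 (SE 0.13) and 0.05 (SE 0.11).

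**Figure D3:**
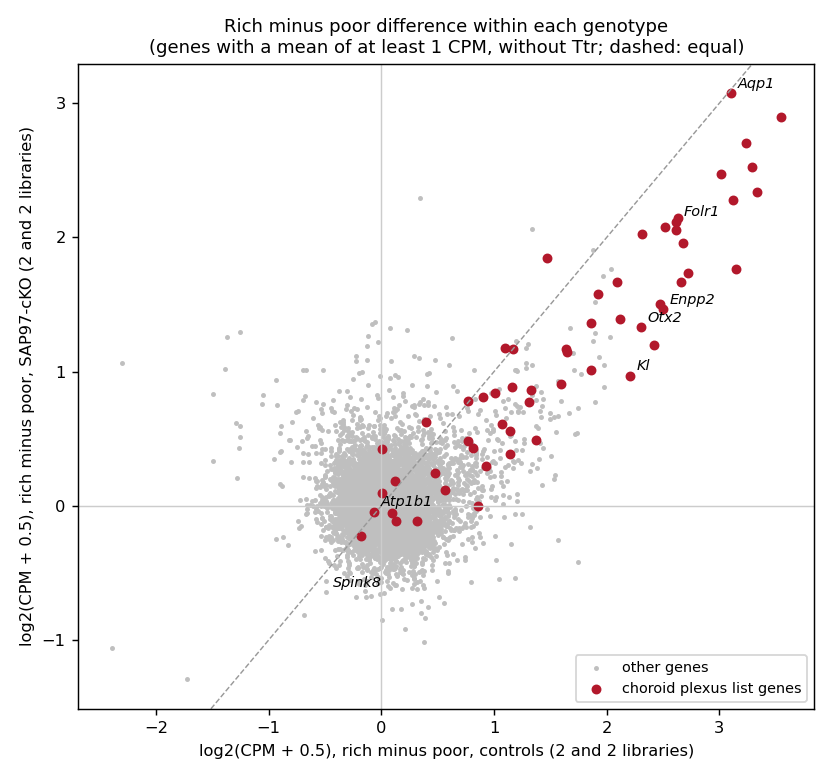
Difference between the means of the rich and the poor libraries in log2(CPM + 0.5), within the controls (horizontal) and within the SAP97-cKO libraries (vertical), for genes other than Ttr with a mean of at least 1 CPM, with choroid plexus list genes in red, other genes in grey and a dashed line where both are equal. Most red points lie to the upper right, with medians of 1.42 and 0.94 over the tested list genes without Ttr, and Aqp1 lies on the dashed line.

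Another 5 of the 120 genes were on lists of other cell types or processes only, and 78 were on no list. The ependyma, which lines the ventricle and shares motile cilia with the plexus, had 3 of 37 tested genes higher and a median log2 difference of 0.51, with 35 of 37 positive. These were the cilium genes Cfap52 (1.35, SE 0.29), Dnah12 (1.12, SE 0.25) and Cfap126 (0.76, SE 0.15), whereas Tppp3 (-0.02, SE 0.15) and Dnah9 (0.07, SE 0.20) did not pass. The summed level of the ependymal list was 159 to 276 CPM in rich and 155 to 187 CPM in poor libraries, so the groups overlapped. Cilium genes were also found off the lists, among them Drc7, a part of the dynein regulatory complex, at 19.6 and 16.0 CPM in the rich and 4.41 and 4.47 CPM in the poor controls. Drc7 was at 10.1 and 5.09 CPM in the rich and at most 3.08 CPM in the poor SAP97-cKO libraries (log2 difference 1.74, SE 0.22). Further such genes were Wdr63 (1.32), Cfap206 (1.15), Cfap70 (1.02), Dnaic2 (0.71) and Cfap69 (0.61), each with every rich library above every poor one. Whether ependyma or plexus epithelium gave this cilium RNA cannot be told apart in bulk tissue.

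Other genes off the lists also passed. The endocytic adaptor gene Epn3 was higher by 1.66 (SE 0.24) and Cdh3, which encodes P-cadherin, by 2.35 (SE 0.46). The phospholipase Pla2g5 was at 1.41 to 7.08 CPM in rich and 0.472 to 1.43 CPM in poor libraries (2.31, SE 0.31), and the galactosidase-like gene Glb1l2 was higher by 1.56 (SE 0.22). Further called genes were the retinol dehydrogenase Rdh5 (1.58, SE 0.25), which stood on both the junction and the retinol lists, the lactate transporter Slc16a8 (2.04, SE 0.47), and the pigmentation genes Oca2 (2.24, SE 0.36) and Slc24a5 (1.64, SE 0.28). Rdh5 was at 12.4, 8.49, 6.57 and 3.98 CPM in the rich and 3.50, 2.49, 2.67 and 1.47 CPM in the poor libraries. Rdh5 was the only one of 21 retinol and thyroid hormone genes to pass (list median 0.13). Thra, the thyroid hormone receptor, was at -0.11 (SE 0.08) and its target Klf9 at -0.06 (SE 0.11). The next genes had under 10 counts in every poor library, so that their fold has no firm value. Cldn9, another claudin, was at 0.406 to 1.06 CPM in rich and 0.0278 to 0.214 CPM in poor libraries. Gyltl1b, a glycosyltransferase gene, was at 0.488 to 1.92 CPM in rich and 0.0535 to 0.0817 CPM in poor libraries, and Ins2, the insulin 2 gene, at 0.186 to 0.675 CPM in rich and at most 0.0278 CPM in poor libraries. Rbp2, a cellular retinol-binding protein gene, was at 0.108 to 0.453 CPM in rich and at most 0.0802 CPM in poor libraries.

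The single gene that was lower in rich libraries was Spink8, a Kazal-type serine protease inhibitor gene that is expressed in hippocampal pyramidal neurons. It was at 15.8, 19.6, 13.8 and 16.2 CPM in the rich and 26.0, 24.1, 22.2 and 25.4 CPM in the poor libraries, with no overlap, and the log2 difference was -0.58 (SE 0.10). The CA1 and CA3 list, on which it did not stand, had 0 of 13 genes past the threshold and a median of -0.09, with Fibcd1 at -0.44 (SE 0.17) and Mpped1 at -0.22 (SE 0.10).

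The remaining lists described the rest of the tissue in the same libraries. Neuron genes were at a median log2 difference of 0.01 (0 of 13 passed), with Camk2a at -0.19 (SE 0.09) and Snap25 at 0.05 (SE 0.08). For Camk2a, both rich libraries lay below both poor ones in each genotype. Dentate gyrus genes were at -0.14 (0 of 10), with Prox1 at -0.14 (SE 0.26) and Calb1 at 0.05 (SE 0.12). Astrocyte genes were at -0.11 (0 of 12), with Slc1a2 at -0.09 (SE 0.09) and Aldoc at -0.14 (SE 0.13). Oligodendrocyte genes were at -0.05 (0 of 14), with Mbp at -0.21 (SE 0.21). Microglia genes were at -0.22, and 0 of 13 were positive, although none passed: Csf1r was at -0.12 (SE 0.08) and Tmem119 at -0.32 (SE 0.11). For Tmem119, both rich libraries were below both poor ones in each genotype.

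The plexus also holds fenestrated vessels, stroma and macrophages, and few of their list genes passed. Endothelial genes had a median of 0.02 (0 of 16), with Slc2a1 at 0.02 (SE 0.10) and Flt1 at 0.00 (SE 0.17). Plvap, which forms the diaphragms of fenestrated vessels, was at 0.30 (SE 0.10) and did not pass. Pericyte and smooth muscle genes were at 0.05 (0 of 12), with Rgs5 at -0.07 (SE 0.14) and Vtn at 0.10 (SE 0.15). Border-associated macrophage genes were at 0.16 (0 of 11), with Stab1 at 0.06 (SE 0.11) and Mrc1 at 0.16 (SE 0.24). Erythroid genes were at 0.05 (0 of 5), with Hbb-bs at 0.05 (SE 0.27) and Hba-a1 at 0.04 (SE 0.24). Fibroblast genes of the meninges and stroma were at 0.19, and 1 of 30 was higher: Pcolce, a procollagen C-proteinase enhancer (1.15, SE 0.23). Dcn was at -0.31 (SE 0.44) and Col1a2 at 0.33 (SE 0.16). The summed fibroblast level was 246 to 434 CPM in rich and 193 to 375 CPM in poor libraries. With the mean log2 CPM of the fibroblast list as a term in the model, 47 genes passed, 17 of them choroid plexus genes.

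Of 16 genes of the neighbouring habenula and thalamus, 0 passed. All 16 had a positive difference, with a median of 0.57 (0.74 within the controls and 0.09 within the SAP97-cKO libraries). In 2 of the 16, both rich libraries lay above both poor ones in each genotype, against 3.22% of all genes tested. Calb2 was at 0.76 (SE 0.18) and Rora at 0.36 (SE 0.13). The summed level of the list was 399.7 CPM in the rich control 3, 206 to 248 CPM in the other rich libraries and 169 to 198 CPM in the poor ones. Striatal genes had a median of 0.35, and 1 of 11 was higher, Ppp1r1b (0.53, SE 0.11), which encodes the dopamine-regulated phosphoprotein DARPP-32; Pde10a was at 0.04 (SE 0.11). The part of neighbouring tissue in the other differences was not tested.

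**Figure D4:**
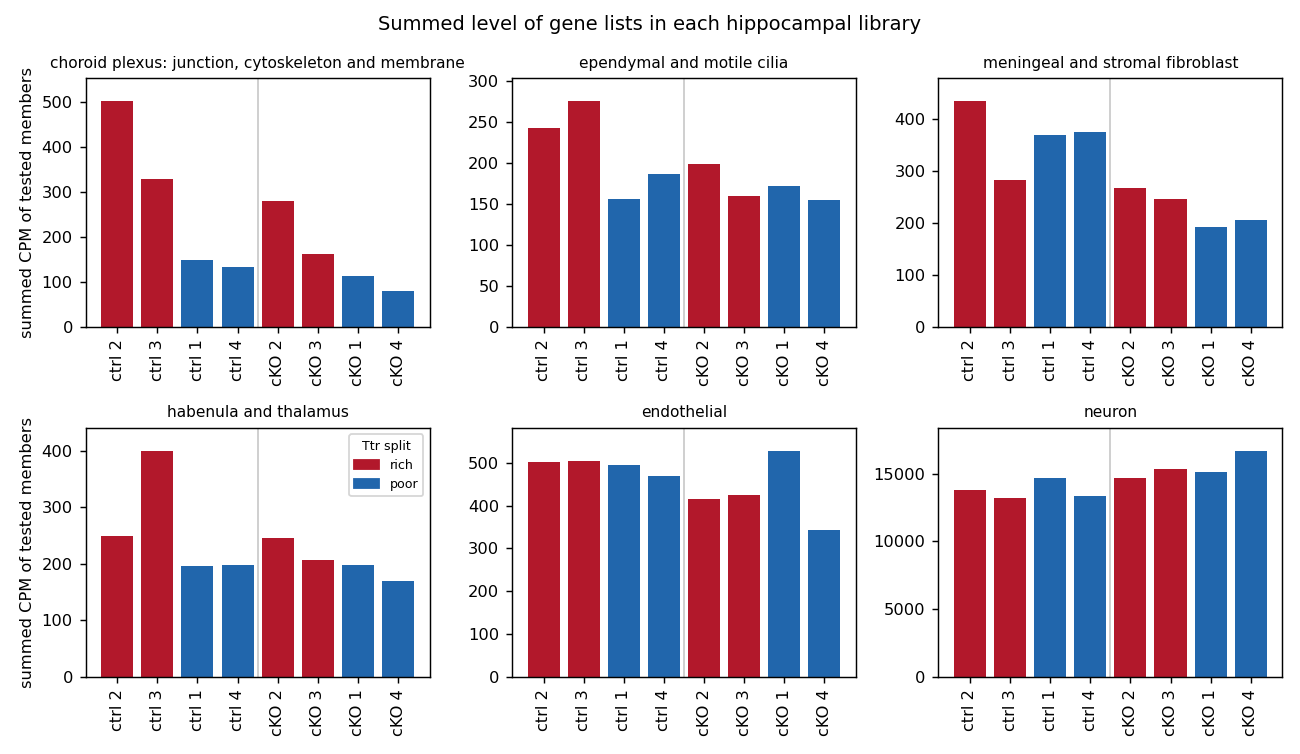
Summed CPM (vertical, from 0) of the tested genes of 6 lists in each library (horizontal), with rich libraries in red and poor ones in blue and a line between control and SAP97-cKO. The junction list of the choroid plexus spans 79.7 to 503 CPM with red bars above blue ones, the habenula and thalamus list is highest in control 3 (399.7 CPM), and the endothelial and neuron lists show no such order.

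Ttr was ranked within each genotype, so that control and SAP97-cKO mice each had 2 rich and 2 poor libraries and the genotypes could be compared with the division in the model. The classes did not have equal Ttr in both genotypes, since both rich and poor SAP97-cKO libraries had less than the control libraries of the same rank. Dlg1, the targeted gene, was at 110, 122, 106 and 125 CPM in control 1 to 4 and at 62.9, 81.9, 57.3 and 53.8 CPM in SAP97-cKO 1 to 4 (log2 difference -0.86, SE 0.13, adjusted p = 0.175 with the Ttr division in the model, edgeR). The groups did not overlap. The count covers the whole gene, of which the deletion removes only a part. Between rich and poor libraries Dlg1 differed by 0.10 (SE 0.12). The level of Ttr was 2715 ± 2716 CPM in controls and 975 ± 908 CPM in SAP97-cKO libraries (SD, n = 4 each), which did not pass an exact two-sided permutation test (p = 0.314, smallest possible 0.0286). The exact permutation p was 0.257 for Enpp2, 0.343 for Kl and 0.257 for Folr1, and all 4 had an adjusted p of 0.343 (Benjamini-Hochberg over the 4 tests). These tests shuffled all 8 libraries without regard to the Ttr division, so the spread between rich and poor libraries entered them. At each replicate number, Ttr in SAP97-cKO was 34.3 to 45.9% of the control, Enpp2 29.4 to 68.5% and Folr1 32.2 to 47.9%. Kl was at 35.5 to 74.0% at numbers 1 to 3 and at 126.9% at number 4.

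With the Ttr division in the model, 104 genes were lower (0.613% of the genes tested) and 7 higher (0.0413%) in SAP97-cKO libraries at an FDR under 0.25. Without it, 33 were lower and 1 was higher, and all 34 of these were among the 111. Of the choroid plexus list genes, 5 of 62 other than Ttr were lower with the division in the model and 0 of 62 without it, and 59 of 62 had a negative difference (median -0.90). With the log2 level of Ttr as a continuous term in place of the division, 32 genes and 0 choroid plexus genes passed, and with the replicate number as a fixed block 257 genes and 38 choroid plexus genes passed. The 5 were Krt18 (-1.43, SE 0.29, adjusted p = 0.199), Slc13a4, a sulfate transporter gene (-1.37, SE 0.30, adjusted p = 0.226), Calml4 (-1.22, SE 0.27, adjusted p = 0.217), Perp (-0.94, SE 0.17, adjusted p = 0.183) and Msx1 (-0.71, SE 0.15, adjusted p = 0.217). Perp, for one, was at 13.4 and 9.78 CPM in the rich and 5.13 and 5.76 CPM in the poor controls. It was at 6.57 and 4.88 CPM in the rich and 3.57 and 2.42 CPM in the poor SAP97-cKO libraries, below the controls of the same Ttr class in each case. These calls moved with single libraries: leaving out control 2, SAP97-cKO 3 or SAP97-cKO 4 left 1 of the 111 genes and no choroid plexus gene, and leaving out control 1 gave 1877 genes.

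Outside the choroid plexus lists, fibroblast genes of the meninges and stroma were lower in SAP97-cKO libraries in 16 of 30 cases with the division in the model and in 9 without it. These included Ogn, the osteoglycin gene (-1.33, SE 0.19, adjusted p = 0.175), and Col1a2 (-1.02, SE 0.16, adjusted p = 0.177). The 1 gene at an FDR under 0.05 was Spp1, which encodes osteopontin (-2.00, SE 0.19, adjusted p = 0.0220), at 18.3 to 30.0 CPM in controls and 2.81 to 9.53 CPM in SAP97-cKO libraries. The glucocorticoid-induced genes Tsc22d3 (-0.61, SE 0.09) and Sgk1 (-0.56, SE 0.08) were lower, both with an adjusted p of 0.175. Among the 7 higher genes were Filip1 (0.69, SE 0.15), Mmp14, a membrane metalloproteinase gene (0.45, SE 0.10), Zfp46 (0.40, SE 0.07), March1, a ubiquitin ligase gene (0.35, SE 0.07) and Dlgap3, a postsynaptic scaffold gene (0.34, SE 0.07), with adjusted p from 0.183 to 0.217. Sgk1 (0.06, SE 0.08), Zfp46 (0.00, SE 0.07) and Ogn (0.30, SE 0.19) did not pass between rich and poor libraries, whereas Spp1 was at 0.79 (SE 0.19) there, also without passing.

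Whether the rich and poor libraries differed by another amount in SAP97-cKO mice than in controls was tested by an interaction term. With edgeR 0 genes passed (lowest adjusted p 0.684), 544 had an unadjusted p under 0.05, and limma-voom gave 0 and DESeq2 31 calls. With 2 libraries in each cell of this design, the larger plexus median within controls was not shown to differ from that within SAP97-cKO libraries.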

How the data were processed

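RNA-seq libraries of 4 control and 4 SAP97-cKO hippocampi were analysed. The authors aligned reads with STAR 2.5.3a to mm10 (GRCm38.p5), removed ribosomal and mitochondrial reads, resampled reads to a common depth with the PORT pipeline and deposited a whole-number count per Ensembl gene. The sources used here do not give whether strand was used in counting. The deposited columns of log2 fold changes, p-values and q-values hold the authors' own limma-voom comparison and were not used. Library totals ran from 37388177 to 37426572 counts. Within a genotype, no 2 libraries were as alike as repeat counts of 1 library would be (chi-square divided by the number of genes 9.88 to 69.3). The resampling to one depth leaves relative levels: a library with more Ttr reads has fewer left for other genes, and Ttr took at most 0.623% of counts.

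From the counts, genes were kept with filterByExpr by genotype and Ttr class (minimum count 10, minimum total 15), which left 16966 of 25834 genes with 99.96% of counts. They were scaled by TMM (factors 0.963 to 1.03) and tested in edgeR 4.0.16 under R 4.3.3 (quasi-likelihood F test), with p-values adjusted by Benjamini and Hochberg's method over the 16966 genes. limma-voom (limma 3.58.1) and DESeq2 1.42.0 were alternatives, beside other scalings, filters, leaving out each library, a continuous Ttr term and a replicate block. SE is the log2 difference divided by the square root of F. On simulated counts (16731 genes) the rich against poor test found 59.1% of 66 genes changed 1.5-fold, 89.2% of 65 changed 2-fold and 98.4% of 64 changed 4-fold, and 29.2% of 226 calls were false. Whether these rates hold for the choroid plexus genes of the 8 libraries was not tested. Of the 62 tested choroid plexus list genes other than Ttr, 52 were highest in control 2 and 48 were lowest in SAP97-cKO 4. P-values between libraries of rich and poor measure whether a gene followed a division made on Ttr in the same libraries.

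The libraries, the 19 gene lists and the genes named were chosen with earlier results of these data known. Of 65 genes on the choroid plexus lists, 63 were in the table and tested. The text names Ttr, Enpp2, Kl and Folr1; the 4 most abundant members of each choroid plexus list; the 2 most abundant members of every other list and up to 4 called ones; off the lists, the 8 called genes of smallest p among the higher and among the lower; Dlg1; and by genotype, the 5 called genes of smallest p on either side. Some genes that this rule would name are not reported here. The other genes named were singled out after their values were seen: Aqp1, Kcnj13, Cldn2, Otx2, Clic6, Igfbp2, Prlr, F5, Slc4a5, Kcne2, Calml4, Krt8, Krt18, Perp, Slc13a4, Plvap, Tmem119, Lmx1a, Cfap69, Cfap70, Cfap206, Wdr63, Dnaic2, Cdh3, Slc16a8, Rbp2, Slc24a5, Abca4, Mfrp and Ace. Leaving out both replicate 4 libraries was an alternative chosen after seeing the data. Plots were drawn with matplotlib 3.10.9.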

Additional observations from a re-analysis of the deposited data

Results flagged for a closer look

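In groups of 4 rich or 4 poor libraries, 18 of 250 groups had 1 library far from the other 3 by Dixon's test at the 95% level, where chance flags about 1 in 20. Among the poor libraries, control 4 stood high for Aldoc (1128 CPM, others at most 803 CPM), Hbb-bs (77.6 CPM, others at most 32.9 CPM), Hba-a1 (36.9 CPM) and the summed erythroid list (151 CPM, others at most 66.7 CPM), and low for Pde10a (65.2 CPM). SAP97-cKO 4, the library with the least Ttr, stood low for Slc2a1 (76.4 CPM), Rgs5 (64.4 CPM), the summed habenula and thalamus list (169 CPM) and the summed secreted choroid plexus list without Ttr (1419.6 CPM, others at least 1977 CPM), and high for Thra (1206 CPM). Control 1 stood apart for Oca2 (1.20 CPM, others at most 0.545 CPM) and, with no count, for Ins2 (0 CPM, others 0.0260 to 0.0278 CPM). For Ins2 every poor library held under 10 counts, so that this flag rests on very few reads.

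Among the rich libraries, control 2, the library with the most Ttr, stood high for Slc16a8 (5.62 CPM, others at most 1.97 CPM), Mrc1 (7.08 CPM, others at most 3.77 CPM) and the summed border-associated macrophage list (35.9 CPM, others at most 26.1 CPM). SAP97-cKO 3 stood low for Vat1l (39.1 CPM, others at least 77.9 CPM) and high for Pde10a (97.1 CPM), and control 3 stood high for Tmem119 (24.9 CPM).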

How the results depend on the processing

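The rich against poor comparison gave 121 calls, 37 of them choroid plexus genes. Ttr was left out of the choroid plexus counts, while the totals cover all genes tested, Ttr included. With Ttr as a continuous term, Ttr was also tested against its own level. DESeq2 gave 288, no filter on low counts 465, a minimum of 10 counts in every library 74 and Ttr as a continuous term 288. The mean log2 CPM of the fibroblast list as a term gave 47 calls with 17 choroid plexus genes. An FDR under 0.05, no genotype term, or leaving out both replicate 4 libraries each gave 0 calls and 0 choroid plexus genes. Leaving out 1 library gave 0 to 299 calls with 0 to 46 choroid plexus genes, where control 4 and SAP97-cKO 4 gave 0, SAP97-cKO 2 gave 14, control 1 gave 19, control 2 gave 31, SAP97-cKO 3 gave 185 and SAP97-cKO 1 gave 299. The causes were not tested. Over 1872 comparisons of named genes with another setting, 0 called differences changed sign. In 405 of them a call was lost and in 50 a call was gained. A sign changed in 23 of 94 named genes, of which 0 were called.

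For genotype with the Ttr division in the model (111 calls, 5 choroid plexus genes), DESeq2 gave 841 and 23, no TMM scaling 338 and 15, no filter 1318 and 50, an FDR under 0.05 gave 1 and 0, no division 34 and 0, Ttr as a continuous term 32 and 0, and leaving out both replicate 4 libraries 1 and 0. Leaving out 1 library gave 1 to 1877 calls with 0 to 45 choroid plexus genes. For the interaction (0 calls), DESeq2 gave 31, no filter 397 and leaving out 1 library 0 to 884, with 884 without control 1. The log2 difference of Ttr between genotypes was -1.48, and -2.20 to -0.67 with 1 library left out.

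Libraries with the same number in both genotypes deviated together by correlations of -0.035, 0.196, 0.097 and 0.247 (numbers 1 to 4). The best-correlated SAP97-cKO library had the same number for controls 2, 3 and 4, and was number 4 for control 1. The numbers were not taken to pair the mice, and whether they do was not tested. With the replicate number as a random block in limma-voom, rich against poor gave 167 calls, 44 of them choroid plexus genes. As a fixed replicate block in place of the Ttr division, genotype gave 257 calls, 38 of them choroid plexus genes.

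At this depth 8868 genes with low counts were left out of the tests. With 2 libraries per cell, and with the division and the replicate numbers inseparable, no value here says what set the Ttr level of a library.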
